A study of Rattus norvegicus with 65 samples.

Results

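The 10 genes described here encode matricellular and closely related matrix proteins made by fibroblasts and other heart cells: Ccn1, Ccn2, Thbs1, Thbs2, Postn, Tnc, Fn1, Lox, Sparc and Spp1. They were chosen by their rat gene symbols. All 10 were found among the 14554 genes of the count table, all 10 passed the filter on low counts, and the smallest count of any of them in any library was 113. RNA sequencing of polyA RNA was done on primary neonatal rat cardiomyocytes, a culture of heart muscle cells from newborn rats, in 65 libraries of 10 groups.

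Cells were exposed for 6 or 24 hours to 10 mM 5FU (5-fluorouracil), 2.5 mM Ace (acetaminophen) or 1.25 μM Dox (doxorubicin). The control DMSO1 held 1% DMSO, as did the 5FU wells, and the control DMSO2 held 0.25% DMSO, as did the Ace and Dox wells. At 6 hours there were 6 libraries each of 5FU, Ace and DMSO1 and 7 each of Dox and DMSO2. At 24 hours there were 6 each of 5FU and DMSO1 and 7 each of Ace, Dox and DMSO2. No gene was altered and all wells had been starved of serum before exposure. Before plating, cells from several litters had been combined, and the libraries of a group were therefore parallel wells of a shared preparation, and every p-value here measures the spread between such wells.

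Matricellular proteins are secreted into the extracellular matrix but mainly signal to cells rather than hold the tissue together. In the heart they are low in quiescent tissue and are known to rise with injury, mechanical load and fibrosis, when fibroblasts are activated. They bind integrins, syndecans and growth factors, and several are classical targets of TGF-beta, of the YAP and TEAD transcription factors and of serum response factor. Fibronectin is a structural matrix glycoprotein and lysyl oxidase is an enzyme that crosslinks collagen and elastin; both are laid down and remodelled together with the matricellular proteins.

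Library totals ran from 14332827 to 25738297 estimated counts. All 11 of the cardiomyocyte markers in the table, out of 12 listed, were above 0, and their summed level ran from 23762 to 71466 CPM, the counts of a gene scaled by library total and TMM factor, over the 65 libraries. The summed level of 10 fibroblast markers ran from 1852 to 18818 CPM, and markers of smooth muscle cells, endothelial cells, macrophages and mesothelium were also present, with no listed marker at 0 throughout any group. The culture was therefore mixed, and which cell type made a given transcript was not measured. Fewer cells of a type and less RNA per cell cannot be told apart in such bulk samples. Some libraries stood apart in a marker sum. Library 1 of DMSO1 at 24 hours had a fibroblast marker sum of 9357 CPM against 13752 to 18818 CPM in the other 5, library 7 of Dox at 24 hours had 1852 CPM against 3039 to 3871 CPM in the other 6 and a smooth muscle marker sum of 409 CPM against 1328 to 1717 CPM. Library 3 of DMSO1 at 6 hours had a smooth muscle marker sum of 1142 CPM against 2201 to 4374 CPM in the other 5, and library 7 of Dox at 6 hours had 1243 CPM against 2537 to 3445 CPM in the other 6. Library numbers are labels only.

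The levels below are CPM scaled by TMM factors, given as the lowest and highest library of a group with the median. Changes are log2 fold changes with their standard error (SE) from 1 edgeR fit of all 10 groups. A gene is said to have risen or fallen at a false discovery rate (FDR) below 0.01 over all 14554 genes.

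**Figure D1:**
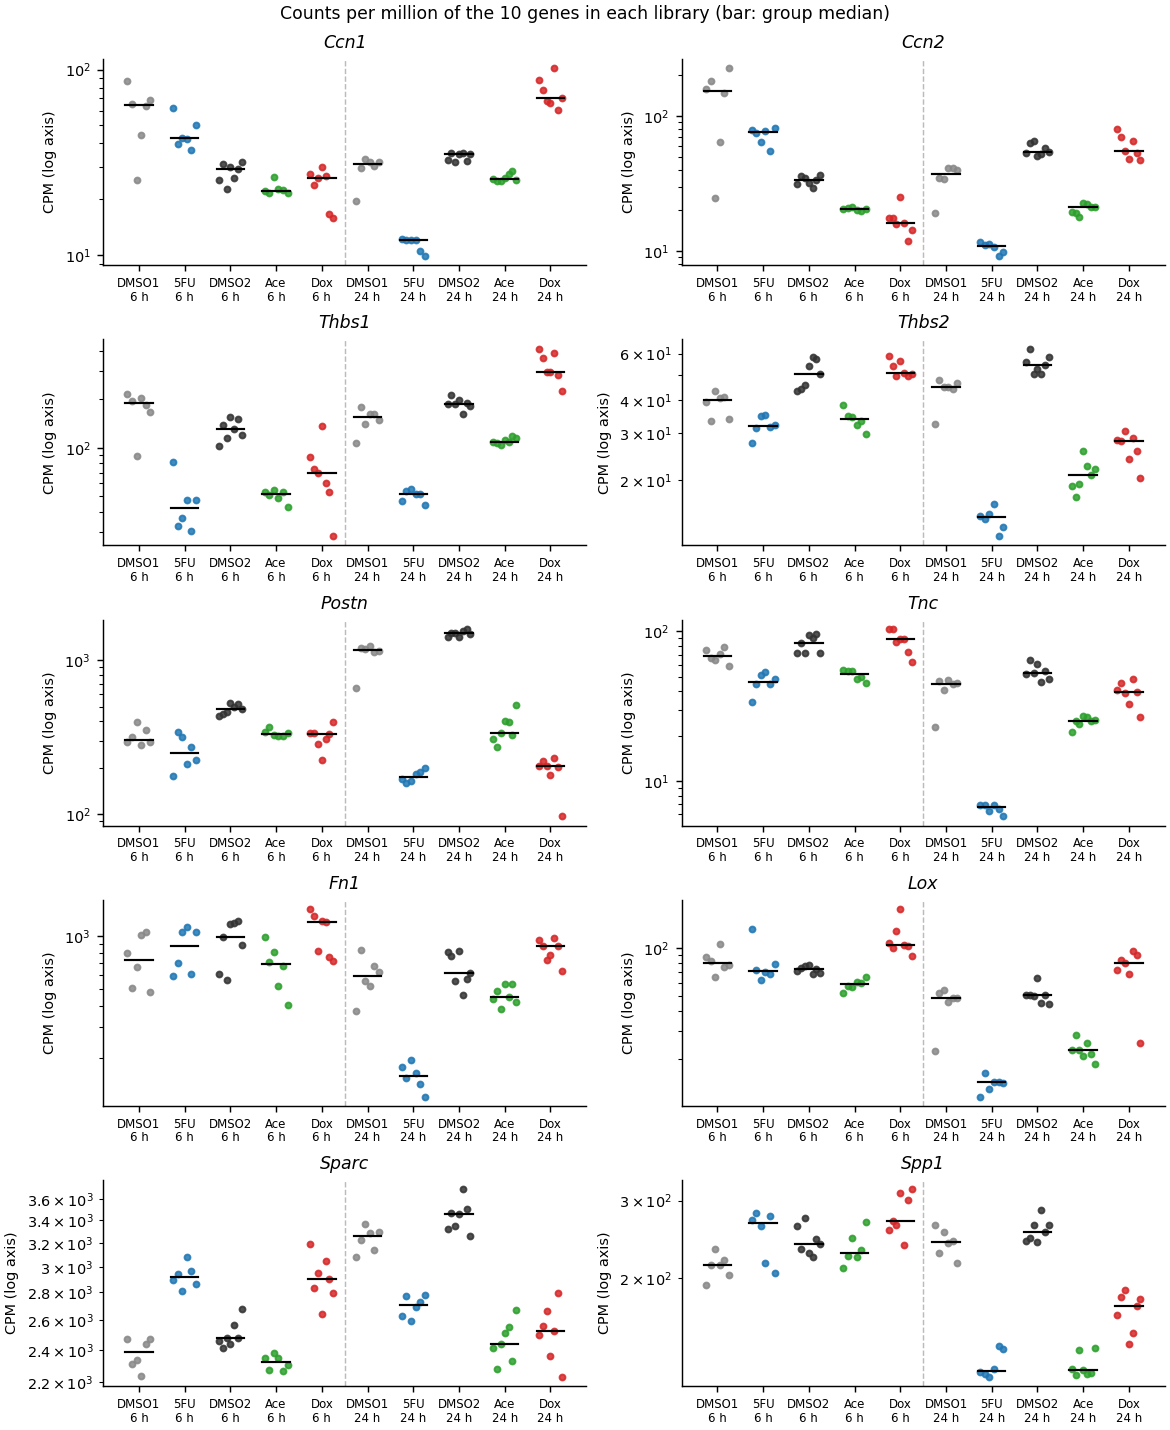
Level of each of the 10 genes in CPM (vertical log axis, with its own range for each gene) in each of the 65 libraries, by group on the horizontal axis, with points for libraries and bars for group medians. Postn stood at 1414 to 1604 CPM in DMSO2 at 24 hours against 96.2 to 231 CPM in Dox, whereas Ccn1 stood at 31.9 to 35.5 CPM against 60.6 to 101 CPM.

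At 24 hours the drugs parted. Under 5FU all 10 genes fell and none rose, where 27.8% of all genes tested fell and 28.0% rose. Under Ace 8 fell and none rose, with 19.1% of all genes falling and 18.2% rising. Under Dox 5 fell and 3 rose, with 41.0% of all genes falling and 40.4% rising. The median log2 fold change of the 10 genes was -1.64 under 5FU, -1.07 under Ace and -0.18 under Dox, beside medians over all genes of -0.01, -0.00082 and 0.0028. Postn, Thbs2, Tnc, Sparc and Spp1 fell under each drug, whereas Ccn1, Thbs1 and Lox rose under Dox only among these 3 comparisons. Ace and Dox were set against the same DMSO2 libraries, so their values are not independent.

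At 6 hours the changes were smaller. Under 5FU 4 of the 10 genes fell and 2 rose (24.5% and 23.4% of all genes), under Ace 5 fell and none rose (15.2% and 16.5%), and under Dox 3 fell and 3 rose (32.7% and 31.5%). Thbs1 and Ccn2 fell under every drug. Shares near those of all genes say nothing particular of the list.

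**Figure D2:**
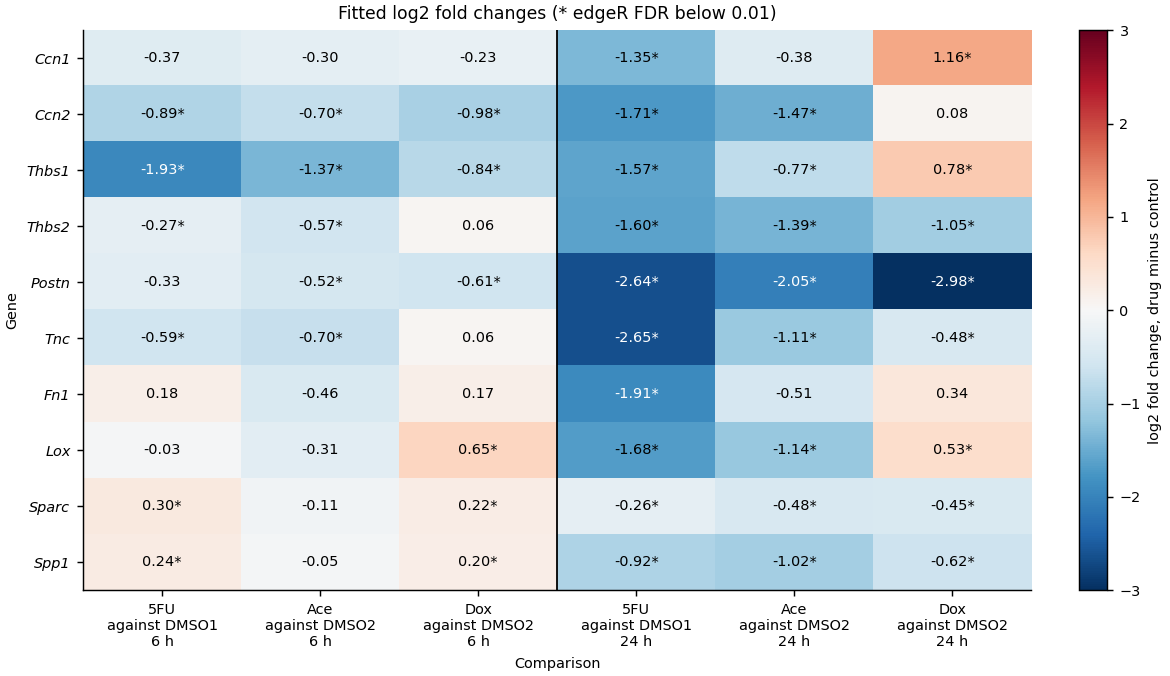
Log2 fold change of each gene (rows) under each drug, relative to the DMSO control of that drug, after 6 and 24 hours (columns), with the value written in each cell, blue for lower and red for higher, and an asterisk at an edgeR FDR below 0.01. All 10 cells of 5FU at 24 hours are blue and carry an asterisk, and the Dox column at 24 hours runs from -2.98 for Postn to 1.16 for Ccn1.

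Ccn1 and Ccn2 encode the CCN proteins also known as CYR61 and CTGF, which bind integrins and are early products of YAP, serum response factor and TGF-beta signalling. The upstream windows of the genes that hold a TEAD motif are printed below, and whether the motif bears on their levels was not tested. RefSeq's promoter table for the rat build GRCr8 held 7 of the 10 genes; Thbs2, Fn1 and Lox were not in it. The TEAD motif was searched as CATTCC on either strand, which reads GGAATG where it lies on the other strand. It was found in 4 of the 7 windows of 250 bases before the start site, and 12.1% of the 33469 windows of that length in the table hold it. The windows are printed 5′ to 3′ on the gene's own strand with the motif in capitals.
Ccn1, GRCr8 chr2:237225690-237225939, minus strand: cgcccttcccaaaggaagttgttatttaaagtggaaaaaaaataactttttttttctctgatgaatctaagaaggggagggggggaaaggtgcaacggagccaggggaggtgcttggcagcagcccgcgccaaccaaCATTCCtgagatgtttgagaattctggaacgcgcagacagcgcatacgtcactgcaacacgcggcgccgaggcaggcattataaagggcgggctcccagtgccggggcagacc
Ccn2, GRCr8 chr1:22624615-22624864, minus strand: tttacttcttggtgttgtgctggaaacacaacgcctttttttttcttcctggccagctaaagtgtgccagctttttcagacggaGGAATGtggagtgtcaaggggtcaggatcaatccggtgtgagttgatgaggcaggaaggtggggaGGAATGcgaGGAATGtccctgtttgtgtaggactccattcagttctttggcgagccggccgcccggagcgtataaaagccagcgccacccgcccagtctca
Thbs1, GRCr8 chr3:125510000-125510249, plus strand: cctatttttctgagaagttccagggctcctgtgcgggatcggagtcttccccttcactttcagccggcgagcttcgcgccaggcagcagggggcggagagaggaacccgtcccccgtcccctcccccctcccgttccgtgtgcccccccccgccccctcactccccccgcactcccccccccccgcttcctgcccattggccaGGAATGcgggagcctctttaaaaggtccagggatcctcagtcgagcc
Sparc, GRCr8 chr10:40038817-40039066, minus strand: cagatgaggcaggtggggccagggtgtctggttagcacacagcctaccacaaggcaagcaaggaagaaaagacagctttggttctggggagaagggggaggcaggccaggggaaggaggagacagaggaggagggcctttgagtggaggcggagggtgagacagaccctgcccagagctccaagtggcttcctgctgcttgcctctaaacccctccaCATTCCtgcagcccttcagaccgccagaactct

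The Ccn2 window held 3 copies of the motif, starting at -166, -101 and -92 from the start site, and the other three windows held 1 each, at -113 in Ccn1, -47 in Thbs1 and -33 in Sparc. None of the 7 windows held an AP-1 site (TGACTCA or TGAGTCA, in 4.05% of all windows) or a CArG box, the element of serum response factor (1.50% of all windows), and no motif overlapped another. These are matches of letters within the window and were not tested as binding sites.

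Ccn1 rose under Dox at 24 hours and fell under 5FU. It stood at 31.9 to 35.5 CPM (median 35.0) in DMSO2 at 24 hours, at 60.6 to 101 CPM (median 70.2) in Dox and at 25.2 to 28.3 CPM (median 25.6) in Ace. Every Dox library was above every control library, and every Ace library was below. The log2 fold change was 1.16 ± 0.14 (FDR 1.09e-11) under Dox, a 2.23-fold rise, and -0.38 ± 0.14 (FDR 0.0216) under Ace, which missed the threshold. In a fit of Ace and DMSO2 at 24 hours alone the Ace value passed (-0.37, FDR 3.21e-07). In DMSO1 at 24 hours the level was 19.5 to 32.8 CPM (median 31.0) and in 5FU it was 9.90 to 12.2 CPM (median 12.0), again with no overlap. The change under 5FU was -1.35 ± 0.16 (FDR 9.77e-11), a 2.55-fold fall. At 6 hours no drug passed the threshold for Ccn1, with log2 fold changes of -0.37 under 5FU (FDR 0.0259), -0.30 under Ace (FDR 0.0982) and -0.23 under Dox (FDR 0.137). The Ace value passed in a fit of Ace and DMSO2 at 6 hours alone (-0.30, FDR 0.0033). The 5FU value passed with scaling by library size only (-0.43, FDR 0.0080).

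Ccn2 fell under all 3 drugs at 6 hours and under 5FU and Ace at 24 hours, and did not pass the threshold under Dox at 24 hours. At 6 hours it stood at 29.5 to 36.5 CPM (median 33.8) in DMSO2, 19.8 to 21.3 CPM (median 20.6) in Ace and 11.9 to 25.1 CPM (median 16.2) in Dox. Neither drug group overlapped the control. The changes were -0.70 ± 0.22 (FDR 0.00631) under Ace and -0.98 ± 0.21 (FDR 4.13e-05) under Dox. At 24 hours the levels were 50.5 to 65.5 CPM (median 53.9) in DMSO2, 18.0 to 22.6 CPM (median 21.1) in Ace and 47.0 to 80.7 CPM (median 54.9) in Dox. Ace lay wholly below the control and Dox overlapped it. The Ace change was -1.47 ± 0.20 (FDR 1.24e-08), and the Dox change was 0.08 ± 0.19 (FDR 0.703), with a 95% interval from -0.31 to 0.47. In 5FU at 24 hours Ccn2 stood at 9.21 to 11.7 CPM (median 10.9) against 19.1 to 41.3 CPM (median 37.1) in DMSO1, a change of -1.71 ± 0.24 (FDR 6.04e-09). At 6 hours it stood at 54.8 to 81.6 CPM (median 76.0) in 5FU, within the wide DMSO1 range of 24.8 to 225 CPM (median 153), and the change of -0.89 ± 0.21 (FDR 1.69e-04) missed the threshold in a fit of those groups alone (-0.90, FDR 0.0482). The Ace call at 6 hours was lost in 9 of 13 fits that left out a library (highest FDR 0.013), with the log2 change between -0.73 and -0.68.

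Thbs1 encodes thrombospondin 1, which activates latent TGF-beta and restrains the growth of blood vessels. It fell under all 3 drugs at 6 hours and then differed in direction at 24 hours. At 6 hours the levels were 88.4 to 215 CPM (median 190.0) in DMSO1 and 30.3 to 82.1 CPM (median 42.1) in 5FU, and no library of one group reached the other. The change of -1.93 ± 0.19 (FDR 4.47e-13) was the largest of any of the 10 genes under a drug against its control at 6 hours. DMSO2 at 6 hours gave 103 to 156 CPM (median 131), Ace 42.7 to 55.0 CPM (median 51.8) and Dox 28.3 to 137 CPM (median 69.2). Ace lay wholly below the control, whereas the highest Dox library lay within it. The changes were -1.37 ± 0.19 (FDR 1.37e-08) and -0.84 ± 0.18 (FDR 2.25e-05), and the Dox change was -0.70 without library 7, the lowest of its group. At 24 hours Thbs1 rose to 227 to 413 CPM (median 297) in Dox against 162 to 212 CPM (median 188) in DMSO2, with no overlap, a change of 0.78 ± 0.17 (FDR 3.81e-05). It fell to 104 to 119 CPM (median 109) in Ace (-0.77 ± 0.17, FDR 1.66e-04) and to 44.0 to 55.4 CPM (median 51.4) in 5FU from 107 to 179.5 CPM (median 155) in DMSO1 (-1.57 ± 0.19, FDR 1.78e-10).

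Thbs2, which encodes the related thrombospondin 2, an inhibitor of vessel growth that shapes collagen fibrils, fell under each drug at 24 hours. Its levels were 50.2 to 62.6 CPM (median 54.4) in DMSO2, 17.2 to 25.7 CPM (median 20.9) in Ace and 20.3 to 30.6 CPM (median 28.1) in Dox, and both drug groups lay below every control library. The changes were -1.39 ± 0.08 (FDR 3.82e-22) under Ace and -1.05 ± 0.08 (FDR 1.13e-18) under Dox. In 5FU the level was 12.3 to 16.3 CPM (median 14.5) against 32.4 to 47.7 CPM (median 44.7) in DMSO1, a change of -1.60 ± 0.09 (FDR 5.40e-23). The 2 thrombospondin genes thus moved in opposite directions under Dox at 24 hours. At 6 hours Thbs2 fell under Ace (-0.57 ± 0.08, FDR 6.32e-08) and under 5FU (-0.27 ± 0.09, FDR 0.00620), and the 5FU call was lost in 8 of 12 fits without a library (highest FDR 0.023). Under Dox at 6 hours the log2 change was 0.06 with a 95% interval from -0.10 to 0.22, and -0.09 with scaling by library size only.

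Postn encodes periostin, a marker of activated heart fibroblasts that binds integrins and collagen. It carried the largest fall of the 10 genes under Ace and Dox at 24 hours, and under 5FU its change was next to that of Tnc. The level was 1414 to 1604 CPM (median 1514) in DMSO2, 273 to 511 CPM (median 335) in Ace and 96.2 to 231 CPM (median 204) in Dox. The groups did not overlap. Postn was 4.14-fold lower under Ace (-2.05 ± 0.13, FDR 1.59e-20) and 7.88-fold lower under Dox (-2.98 ± 0.14, FDR 1.21e-29). Library 7 of Dox was the lowest, at 96.2 CPM, and the Dox change was -2.84 without it. In 5FU the level was 158 to 199 CPM (median 175) against 665 to 1241 CPM (median 1167) in DMSO1, a 6.23-fold fall (-2.64 ± 0.15, FDR 8.37e-24). At 6 hours the falls were shallower, -0.52 ± 0.13 (FDR 0.00103) under Ace and -0.61 ± 0.13 (FDR 2.83e-05) under Dox, and the 5FU value was -0.33 ± 0.14 (FDR 0.0375), above the threshold. In DMSO2 at 6 hours Postn stood at 436 to 524 CPM (median 484), so the control level itself was higher at 24 hours, as tested further on.

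Tnc encodes tenascin C, an anti-adhesive glycoprotein that is prominent at sites of remodelling. It fell under each drug at 24 hours, most under 5FU. It stood at 23.0 to 47.8 CPM (median 44.9) in DMSO1 and 5.83 to 6.98 CPM (median 6.71) in 5FU, and the highest 5FU library was below the lowest control. The change was -2.65 ± 0.14 (FDR 2.00e-24), a 6.26-fold fall. In DMSO2 Tnc stood at 46.0 to 64.7 CPM (median 52.7), in Ace at 21.2 to 27.1 CPM (median 25.4) and in Dox at 27.0 to 48.0 CPM (median 39.5), so that Ace lay below the control and Dox overlapped it. The changes were -1.11 ± 0.11 (FDR 1.03e-12) under Ace and -0.48 ± 0.11 (FDR 7.94e-05) under Dox. At 6 hours Tnc had already fallen under 5FU (-0.59 ± 0.12, FDR 1.97e-05) and Ace (-0.70 ± 0.11, FDR 7.41e-07). Under Dox at 6 hours the log2 change was 0.06, with a 95% interval from -0.16 to 0.27, and it was -0.10 with scaling by library size only.

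Fn1 encodes fibronectin, the integrin ligand on which other matrix proteins assemble. It fell only under 5FU at 24 hours among the 6 comparisons of a drug with its control. The level was 372 to 835 CPM (median 588) in DMSO1 and 121 to 197 CPM (median 159) in 5FU, with no overlap, and the change was -1.91 ± 0.21 (FDR 5.42e-12). In DMSO2 at 24 hours it was 460.0 to 824 CPM (median 615), in Ace 384 to 535 CPM (median 451) and in Dox 632 to 976 CPM (median 878). Ace and Dox each overlapped the control, and Ace lay wholly below Dox. The change was -0.51 under Ace (95% interval -0.88 to -0.14) and 0.34 under Dox (95% interval -0.04 to 0.71). The Ace value passed the threshold in a fit of those 2 groups alone (-0.51, FDR 0.0010).

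Lox, the gene of lysyl oxidase, rose under Dox at both times and fell under 5FU and Ace at 24 hours. At 6 hours its level was 68.2 to 78.2 CPM (median 73.9) in DMSO2 and 88.2 to 174 CPM (median 103) in Dox, with every Dox library above every control. The change was 0.65 ± 0.15 (FDR 1.92e-04). At 24 hours it was 44.5 to 64.3 CPM (median 50.6) in DMSO2, 25.4 to 95.1 CPM (median 80.7) in Dox and 18.7 to 28.5 CPM (median 22.8) in Ace. The other 6 Dox libraries lay above the control, while library 7, at 25.4 CPM, lay below it. The Dox change was 0.53 ± 0.16 (FDR 0.00164), it was 0.71 without library 7, and it missed the threshold in a fit of those 2 groups alone (FDR 0.0133). The Ace change was -1.14 ± 0.17 (FDR 3.31e-08). In 5FU at 24 hours Lox was at 11.7 to 16.5 CPM (median 14.4) against 22.6 to 54.4 CPM (median 48.4) in DMSO1, a change of -1.68 ± 0.19 (FDR 9.01e-12). At 6 hours the changes were -0.03 under 5FU (FDR 0.879) and -0.31 under Ace (FDR 0.117). Every Ace library at 6 hours, at 52.1 to 65.6 CPM, lay below every DMSO2 library. The Ace value passed the threshold in a fit of those 2 groups alone (-0.31, FDR 5.92e-05).

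Sparc, which encodes a collagen-binding protein of the matrix, moved least. Its group means spanned 1.48-fold over the 10 groups, and its SD within groups, pooled over all groups, was 0.066 on the log2 scale. It stood at 3255 to 3693 CPM (median 3459.9) in DMSO2 at 24 hours, 2282 to 2673 CPM (median 2439) in Ace and 2232 to 2795 CPM (median 2521) in Dox. Both drug groups lay below all control libraries, with changes of -0.48 ± 0.04 (FDR 1.13e-15) and -0.45 ± 0.04 (FDR 1.21e-15). The fall under 5FU at 24 hours was -0.26 ± 0.04 (FDR 6.90e-07), again with no overlap. At 6 hours Sparc had risen under 5FU (0.30 ± 0.04, FDR 3.51e-08) and under Dox (0.22 ± 0.04, FDR 3.73e-06), so both calls changed direction between the times. With scaling by library size only, which moved the median of all genes by -0.15 in the Dox comparison at 6 hours, the Dox value was 0.06 and did not pass.

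Spp1 encodes osteopontin, a cytokine-like matrix protein made by macrophages and by injured heart cells. It fell under each drug at 24 hours. In DMSO2 it stood at 242 to 286 CPM (median 255), in Ace at 120.3 to 139 CPM (median 124) and in Dox at 142 to 188 CPM (median 173). No drug library reached the controls. The changes were -1.02 ± 0.07 (FDR 2.15e-20) under Ace and -0.62 ± 0.07 (FDR 4.80e-13) under Dox. In 5FU it stood at 119 to 139.7 CPM (median 123) against 216 to 264 CPM (median 242) in DMSO1 (-0.92 ± 0.07, FDR 1.59e-17). At 6 hours Spp1 rose slightly under 5FU (0.24 ± 0.07, FDR 0.00254) and Dox (0.20 ± 0.07, FDR 0.00497). The Dox call was lost in 6 of 14 fits without a library, among them that without library 7 of Dox (0.17, FDR 0.0197), in a fit of those 2 groups alone and with scaling by library size only (0.05), and the 5FU call in 3 of 12 such fits and in those same 2 alternatives.

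The time course was tested as the effect at 24 hours minus the effect at 6 hours. Under 5FU 8 of the 10 genes had a lower effect at 24 than at 6 hours and none a higher one (19.2% and 20.3% of all genes). The differences on the log2 scale ran from -0.56 for Sparc to -2.31 for Postn, and Ccn2 (-0.82 ± 0.31, FDR 0.0253) and Thbs1 (0.36 ± 0.27, FDR 0.274) did not pass. Under Ace 5 genes had a lower effect and none a higher one (6.06% and 5.58%), namely Postn (-1.53), Spp1 (-0.97), Lox (-0.83), Thbs2 (-0.82) and Sparc (-0.38). The Lox call was lost in 6 of 27 fits without a library. Under Dox 5 had a lower effect and 3 a higher one (30.8% and 34.0%). The higher ones were Thbs1 (1.62 ± 0.25, FDR 3.08e-08), Ccn1 (1.39 ± 0.20, FDR 5.33e-09) and Ccn2 (1.06 ± 0.29, FDR 8.47e-04), and Postn was lowest (-2.37 ± 0.18, FDR 3.34e-18). Lox and Fn1 under Dox had values of -0.11 and 0.17 and did not pass.

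**Figure D3:**
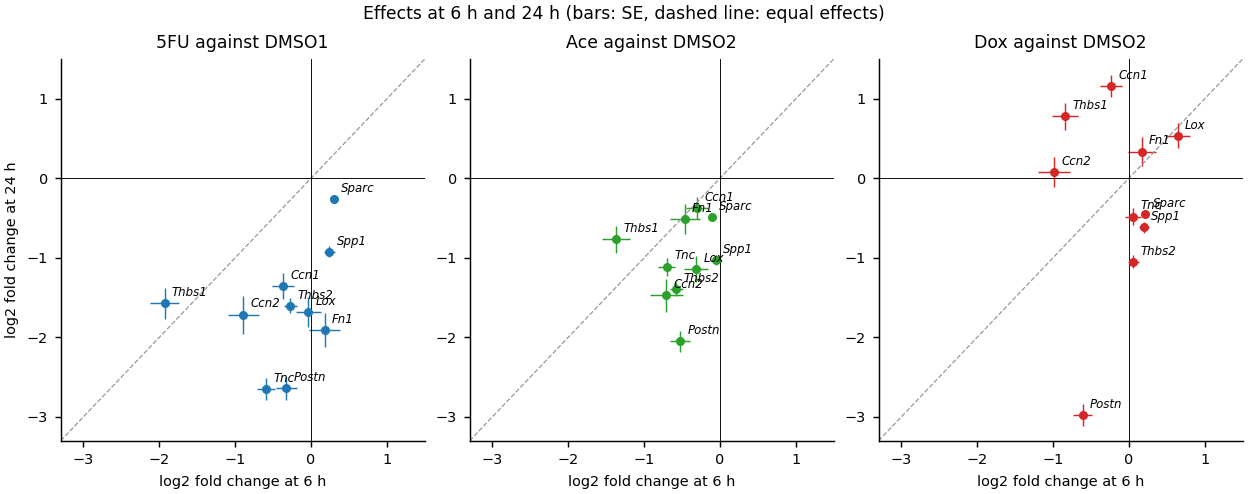
Log2 fold change at 6 hours (horizontal axis) against that at 24 hours (vertical axis) of the 10 genes under each drug, with SE bars and a dashed line of equal effects. Under 5FU Thbs1 alone lies above the line, and under Dox Ccn1, Ccn2 and Thbs1 lie above it by 1.06 to 1.62 and Fn1 by 0.17.

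Dox differed from the other drugs. The Dox effect minus the 5FU effect, each against its own control, was positive and past the threshold for 8 of the 10 genes at 24 hours and negative for 1 (35.8% and 35.4% of all genes). The differences were 2.51 ± 0.21 (FDR 9.34e-17) for Ccn1, 2.35 for Thbs1, 2.24 for Fn1, 2.22 for Lox and 2.17 for Tnc. Postn did not separate these drugs (-0.34 ± 0.19, FDR 0.0942, 95% interval -0.72 to 0.04), and Sparc was the negative one (-0.19 ± 0.06, FDR 0.00397, not passing with DESeq2's size factors, where it was -0.15). At 6 hours 3 genes differed upwards and none downwards (22.0% and 24.0%): Thbs1 (1.09 ± 0.26, FDR 2.61e-04), Tnc (0.65 ± 0.16, FDR 3.93e-04) and Lox (0.68 ± 0.23, FDR 0.00896). The Lox difference was lost in 15 of 26 fits without a library, and that of Thbs1 had an FDR of 0.0101 in a fit of those groups alone.

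The Ace and Dox wells held the same amount of DMSO and were compared directly. At 24 hours 8 genes were higher in Dox than in Ace and 1 was lower (40.7% and 39.9% of all genes). Lox was 3.2-fold higher (1.68 ± 0.17, FDR 2.31e-14), Ccn2 2.93-fold (1.55 ± 0.20, FDR 4.50e-10), Thbs1 2.92-fold (1.55 ± 0.17, FDR 3.26e-12) and Ccn1 2.9-fold (1.53 ± 0.14, FDR 6.29e-16). Postn was lower in Dox (-0.93 ± 0.13, FDR 1.87e-09) and Sparc did not pass (0.04 ± 0.04, FDR 0.412). At 6 hours 6 genes were higher in Dox and none lower (30.6% and 31.4%), and Lox (0.96), Tnc (0.76) and Thbs2 (0.64) had the largest differences. Fn1 (0.63) and Spp1 (0.26) did not pass with scaling by library size only.

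The controls differed from each other at 6 hours. DMSO1, with more DMSO, had 2 of the 10 genes higher and 2 lower than DMSO2 (9.87% and 6.60% of all genes). Ccn2 was 4-fold higher (2.0 ± 0.20, FDR 3.24e-11) and Ccn1 2.11-fold higher (1.08 ± 0.14, FDR 2.86e-08), while Postn (-0.58 ± 0.13, FDR 6.35e-04) and Thbs2 (-0.38 ± 0.08, FDR 3.32e-04) were lower. Cell type markers moved in the same comparison, with 7 of 10 fibroblast markers lower (median -0.42), 5 of 7 endothelial markers lower (median -0.64) and none of either higher. The fibroblast marker sum was 6257 to 10618 CPM in DMSO1 against 9281 to 14004 CPM in DMSO2, and the smooth muscle marker sum was 1142 to 4374 CPM (median 2806) against 1097 to 1426 CPM (median 1157), with 3 of 7 markers higher and 3 lower. Their part in the differences was not tested. The DMSO1 libraries were far apart for Ccn2, with 24.8 CPM in library 3 and 64.0 CPM in library 4 against 147 to 225 CPM in the other 4. Library 3 lay below every DMSO2 library, and without it the differences were 2.22 for Ccn2 and 1.23 for Ccn1. The same library had the lowest Ccn1 (25.5 CPM) and Thbs1 (88.4 CPM) of its group and the lowest smooth muscle marker sum given above, and whether these share a cause was not tested. The 5FU wells at 6 hours, at 54.8 to 81.6 CPM (median 76.0) of Ccn2, lay above every DMSO2 library even though the gene fell relative to DMSO1.

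At 24 hours none of the 10 genes differed between DMSO1 and DMSO2 at the edgeR threshold (0.137% of all genes were higher and 0.295% lower). In that comparison 5 of the 10 had an unadjusted edgeR p under 0.05, and the share of all genes under it was not computed. The DESeq2 Wald test called Thbs2 (-0.34, FDR 0.0058). The log2 values were all negative, from -0.70 for Ccn2 to -0.09 for Sparc, and without library 1 of DMSO1 Ccn2 stood at -0.57. In the mean of both controls, from 6 to 24 hours, 2 genes rose and 5 fell (32.7% and 31.9% of all genes). Postn (1.70 ± 0.10, FDR 2.25e-24) and Sparc (0.45 ± 0.03, FDR 6.75e-21) rose, and Lox (-0.70), Tnc (-0.68), Ccn2 (-0.59), Fn1 (-0.43) and Ccn1 (-0.36) fell. For Ccn1 and Ccn2 the controls went in opposite directions. In DMSO2 Ccn2 went from 29.5 to 36.5 CPM at 6 hours up to 50.5 to 65.5 CPM. Ccn1 there went from 22.6 to 31.7 CPM up to 31.9 to 35.5 CPM. In DMSO1 the median fell from 153 to 37.1 CPM for Ccn2 and from 64.2 to 31.0 CPM for Ccn1. The Thbs1 median also went up in DMSO2, from 131 to 188 CPM, and down in DMSO1, from 190 to 155 CPM. For Thbs1 the ranges of the 2 times overlapped in DMSO1. The Fn1 call was lost in 4 of 26 fits without a library, among them that without library 1 of DMSO1 at 24 hours (FDR 0.0124). The drug groups at 24 hours were set against these 24-hour controls.

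Markers of fibroblasts moved with several of these changes. At 24 hours all 10 fibroblast markers fell under 5FU (median log2 fold change -1.25) and under Dox (-2.14), and 9 of 10 fell under Ace (-1.03), beside the medians over all genes given above. Their summed level was 1852 to 3871 CPM in Dox, 6976 to 8936 CPM in Ace and 13667 to 17553 CPM in DMSO2, and 5045 to 5712 CPM in 5FU against 9357 to 18818 CPM in DMSO1. No marker was at 0. At 6 hours 3 of the 10 fell under 5FU (median -0.0015), 7 under Ace (-0.37) and 6 under Dox (-0.38), and none rose. Postn, at -2.98 under Dox, lay at the low end of the markers there, and Ccn1, Thbs1 and Lox rose in the same comparison. All 7 endothelial and all 7 macrophage markers tested also fell under Dox at 24 hours (medians -2.21 and -1.81), as did 9 of 11 cardiomyocyte markers (-1.12). Under 5FU at 24 hours 5 of 5 mesothelial, 5 of 7 endothelial, 2 of 7 macrophage and 7 of 11 cardiomyocyte markers fell. There 2 cardiomyocyte markers rose, and of 7 smooth muscle markers 5 fell and 2 rose. Under Ace at 24 hours 4 of 5 mesothelial markers fell, and 4 of 7 each of endothelial, macrophage and smooth muscle markers. Of 11 cardiomyocyte markers 5 fell and 2 rose under Ace. The smooth muscle and pericyte list split, with 3 of 7 higher and 3 lower under Dox at 24 hours, while at 6 hours 4 of 7 were higher and 1 lower (median 1.54). The part of these shifts in the levels of the 10 genes was not tested.

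**Figure D4:**
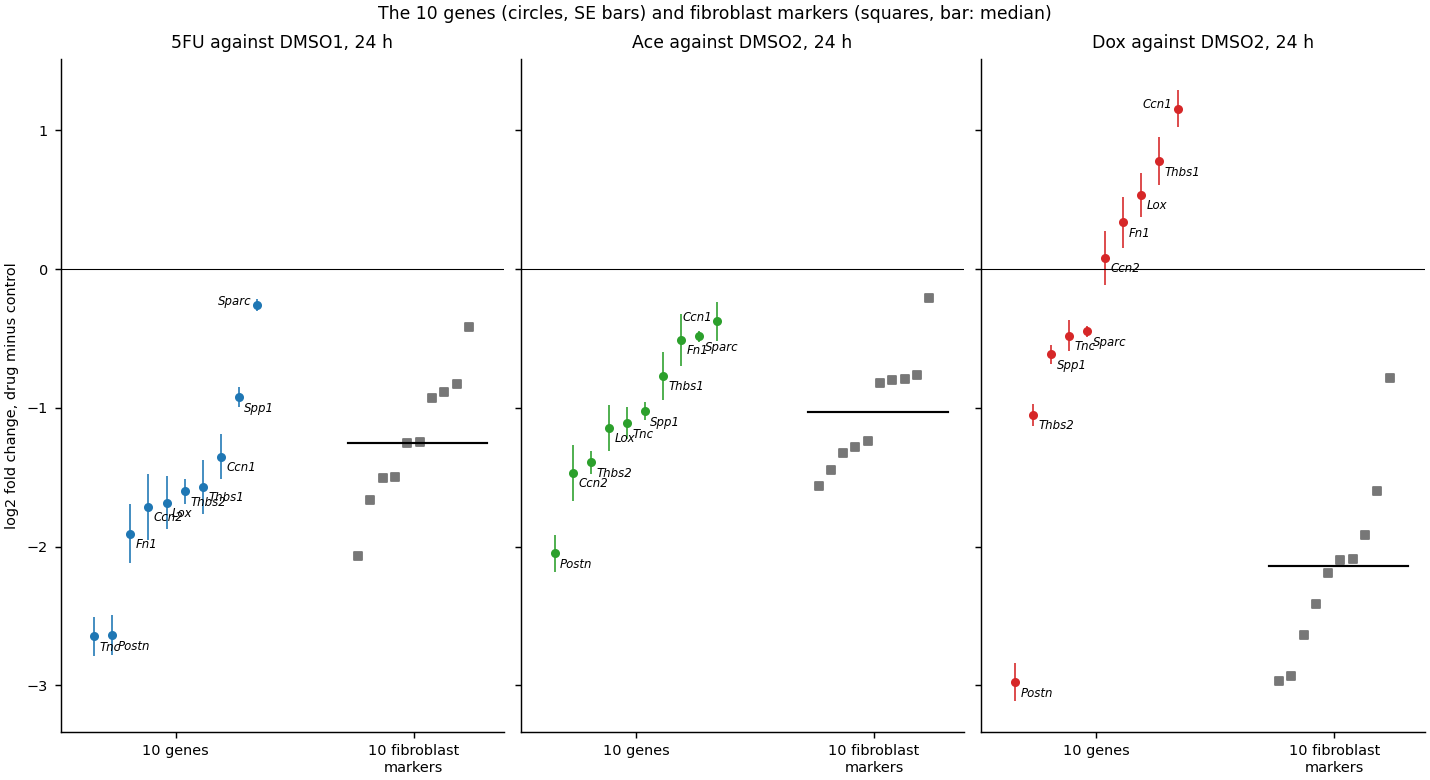
Log2 fold change at 24 hours (vertical axis) of the 10 genes (circles with SE bars, named) and of 10 fibroblast markers (squares, with their median as a bar) in each drug against its control. Under Dox the marker median is -2.14 while the 10 genes run from -2.98 to 1.16, and under 5FU and Ace both sets lie below 0.

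The spread between wells of a group differed widely among the genes. The SD within groups on the log2 scale, pooled over all groups, was 0.42 for Ccn2, 0.37 for Fn1, 0.35 for Thbs1, 0.33 for Lox, 0.28 for Ccn1 and 0.26 for Postn, against 0.066 for Sparc. Of the 10817 genes with a mean count of at least 100, 99.1% had a smaller SD than Ccn2 and 98.5% a smaller SD than Fn1, but only 1.85% a smaller one than Sparc. The Ccn2 value leans on DMSO1 at 6 hours, with an SD of 1.21 against 0.038 to 0.42 in the other groups. The group means spanned 12.8-fold for Tnc, 10.0-fold for Ccn2, 8.57-fold for Postn and 2.20-fold for Spp1. In 7 of the 10 genes the lowest group was 5FU at 24 hours, and Tnc, Fn1, Lox and Spp1 were highest in Dox at 6 hours. The lowest and highest groups were not counted over all genes.

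With the groups of each gene put in order of their median level, 0 to 3 of the 9 pairs of neighbours had ranges that did not overlap. Overlap of ranges does not show that 2 groups were alike: Tnc (0.63 ± 0.11, FDR 1.23e-06) and Thbs2 (0.34 ± 0.08, FDR 2.12e-04) were higher in Dox than in Ace at 24 hours although these groups were overlapping neighbours. For 6 genes, Ccn1, Ccn2, Thbs2, Tnc, Fn1 and Lox, 5FU at 24 hours came last and apart from the next group. Neither this order nor the number of pairs apart was counted over all genes, so these counts say nothing particular of the list. Postn was highest in DMSO2 at 24 hours, then in DMSO1 at 24 hours, each apart from the group after it, and Thbs1 was highest in Dox at 24 hours, apart from the rest.

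Some of the genes deviated together. Over the 65 libraries, with each group's mean removed, Pearson's r was 0.82 between Ccn1 and Ccn2, 0.75 between Ccn1 and Thbs1, 0.56 between Ccn2 and Thbs1, 0.75 between Tnc and Fn1 and 0.73 between Thbs2 and Tnc. Spp1 and Fn1 deviated in opposite directions (r = -0.58). These are descriptions over separate wells that share a preparation and scaling. DMSO1 at 6 hours had the largest SD of any group for Ccn1 (0.62 on the log2 scale) and Ccn2 (1.21). It therefore weighs heavily in their r, and r without that group was not computed. Fn1 deviated most like Lrp1 and Fbn1 (r = 0.96 for each), which encode a large endocytic receptor and fibrillin 1, named here after their values were seen. At 24 hours their log2 changes were -0.93 and -0.94 under Dox and -1.45 and -1.33 under 5FU, beside 0.34 and -1.91 for Fn1.

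**Figure D5:**
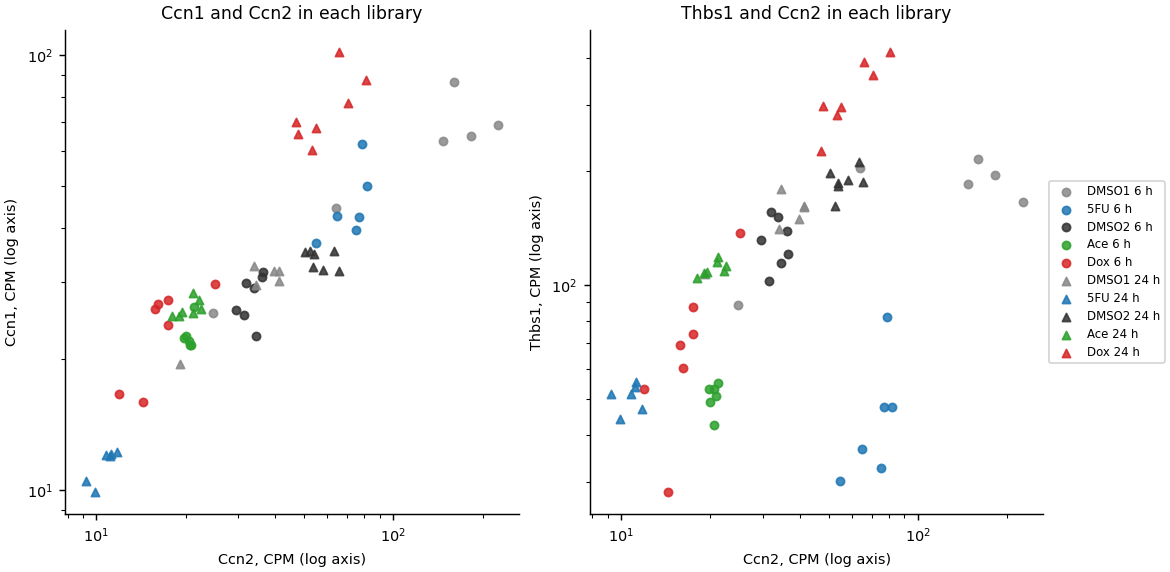
Level of Ccn1 (left) and Thbs1 (right) against that of Ccn2 in each of the 65 libraries, in CPM on log axes, with colour for the group, circles for 6 hours and triangles for 24 hours. Libraries of DMSO1 at 6 hours spread along the Ccn2 axis from 24.8 to 225 CPM with Ccn1 from 25.5 to 86.5 CPM. The Dox libraries at 24 hours lie above all others in Thbs1. In Ccn1 the lowest of them, at 60.6 CPM, lies below the highest library of 5FU at 6 hours, at 62.4 CPM.

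Over the 10 group means of log2 CPM, the genes whose pattern was most like that of Postn were Igf1 (r = 0.99), a growth factor gene, Fbln5 (0.99), an elastic fibre gene, and Frem1 (0.97). Their r within groups was 0.43, 0.65 and 0.69. Most like Spp1 were Mmp12 (0.96), Itgad (0.95) and Pf4 (0.94), genes best known from myeloid cells, but their r within groups was 0.08, -0.34 and 0.13. For Tnc and Fn1 the list included Col8a1 (0.97 for each, within groups 0.52 and 0.25), a collagen gene. For Fn1 and Lox it included Col12a1 (0.96 and 0.97, within groups 0.73 and 0.61), also a collagen gene. Tnc was also near Tubb2b (0.98, within groups 0.51), and Thbs2 near Cthrc1 (0.93, within groups 0.34), a collagen-associated secreted protein. The rest of these lists were Chd3 for Tnc, LOC100359916 for Fn1, Fabp5 and Drc3 for Lox, and Hs6st2 and Baalc for Thbs2. All were picked for a high r among many genes. The nearest genes of Ccn1, Ccn2, Thbs1 and Sparc had r values from 0.86 to 0.94. Among them were Ccn1 for Ccn2 (0.89, within groups 0.82) and the protease gene Plau for Sparc (0.90, within groups 0.30).

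Other members of the pathway were counted from lists of genes. The shares of all genes to read them against at 24 hours are 27.8% falling and 28.0% rising under 5FU, 19.1% and 18.2% under Ace, and 41.0% and 40.4% under Dox. Under Dox the counts of family relatives, receptors, upstream regulators and processing enzymes lay near these shares and say nothing particular of those lists. Of 18 family relatives tested, 8 fell and 1 rose under 5FU at 24 hours, 11 fell and none rose under Ace, and 7 fell and 7 rose under Dox. Ccn5, a CCN family member, fell most under 5FU (-3.11 ± 0.29, FDR 2.76e-14), and Sparcl1, the SPARC-like gene, fell most under Ace (-1.64 ± 0.12, FDR 1.07e-18) and Dox (-4.53 ± 0.15, FDR 2.03e-37). Comp, the gene of thrombospondin 5, rose most under Dox (2.63 ± 0.25, FDR 3.31e-15). Ccn5 and Comp were low in level. The mean log2 CPM of Ccn5 was 1.02 in DMSO1 and -1.70 in 5FU, and that of Comp was -1.24 in DMSO2 and 1.26 in Dox. Of 20 receptor genes, 11 fell and 2 rose under 5FU, 8 fell and 2 rose under Ace, and 10 fell and 8 rose under Dox. Itga8, an integrin subunit that binds several of these ligands, fell most under each drug, by 2.51 on the log2 scale under 5FU, by 1.85 under Ace and by 2.57 under Dox. Cd44, a receptor of osteopontin and hyaluronan, rose most under 5FU (0.49 ± 0.10, FDR 4.64e-05) and Ace (0.64 ± 0.10, FDR 9.06e-08), and the syndecan gene Sdc1 rose most under Dox (2.61 ± 0.06, FDR 4.16e-45).

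Among 19 upstream regulators, 10 fell and 2 rose under 5FU at 24 hours, 7 fell and none rose under Ace, and 7 fell and 8 rose under Dox, where the ligand gene Tgfb2 rose (2.10 ± 0.18, FDR 2.41e-16) and the co-receptor gene Tgfbr3 fell (-2.13 ± 0.09, FDR 2.33e-31). Of 13 other targets of TGF-beta, YAP and serum response factor, 9 fell and 1 rose under 5FU, 4 fell and 1 rose under Ace, and 3 fell and 7 rose under Dox (median 0.64). The targets did not move as a block under Dox, since Egr1, an immediate early gene, rose (1.99 ± 0.13, FDR 9.31e-23) and Ankrd1, a cardiac ankyrin repeat gene, fell (-3.69 ± 0.23, FDR 9.43e-23). In DMSO1 against DMSO2 at 6 hours 7 of these 13 targets were higher and none lower (median 0.39), in the comparison in which Ccn1 and Ccn2 were higher.

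Of 11 processing enzymes, 6 fell and none rose under 5FU, 6 fell and none rose under Ace, and 5 fell and 5 rose under Dox. Plau, the gene of urokinase, fell most in each drug (-1.37 ± 0.14, FDR 1.80e-13 under 5FU, -1.32 ± 0.12, FDR 2.19e-14 under Ace and -1.83 ± 0.13, FDR 6.36e-21 under Dox), and Adamts1, which encodes a protease of proteoglycans and thrombospondins, rose under Dox (2.07 ± 0.11, FDR 6.02e-26). Of 16 elastic fibre and fibronectin partners, 15 fell under 5FU (median -1.20), 14 under Ace (-0.72) and 10 under Dox (-1.50), and the only rises were 2 under Dox. There Ltbp2, a latent TGF-beta binding protein gene, rose most (1.48 ± 0.12, FDR 1.37e-18) and the microfibril gene Mfap2 fell most (-3.04 ± 0.16, FDR 3.32e-26).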

How the data were processed

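PolyA RNA was sequenced in 65 libraries. The values analysed are estimated counts as deposited. Per the study's methods and processing notes, the authors assigned reads to rat transcripts with kallisto 0.46.0 and summed them to genes with tximport, leaving out genes that stayed under a low count in all samples. The deposited values are whole numbers without normalization.

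Analyses used R 4.3.3. A gene needed a count of 10 or more in 1 library or more, and all 14554 passed. TMM scaling was applied and the counts were modelled in edgeR 4.0.16 (glmQLFit, glmQLFTest; limma 3.58.1) in 1 model of 10 groups with 16 contrasts, and p-values were adjusted by Benjamini-Hochberg over all genes, with a false discovery rate below 0.01 as the threshold. The fit was tested on simulated data. Levels are CPM, and deviations, correlations and spreads use log2 CPM with a prior count of 2. Every library held at least 14332827 counts. The parts of counting error and of the spread between wells in these values were not separated.

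Groups came from the labels. Since column names have no replicate number, library numbers are labels only. Symbols (14009 genes) and promoter sequences came from RefSeq tables of GRCr8. The 10 genes, the lists and the rule for named genes (the largest rise and fall of each list under each drug at 24 hours, and for each of the 10 genes the 3 genes most like it over group means with a mean count of at least 100) were chosen with earlier results of these data known. Listed genes that are not in the table were not analysed here. Alternatives were DESeq2 1.42.0 (Wald test and size factors), library size only, the compared groups alone, filterByExpr, no filter, FDR below 0.1, a log2 fold change of at least 1, a prior count of 0.5, and each library left out in turn.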

Additional observations from a re-analysis of the deposited data

Results flagged for a closer look

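A library far from the others of its group, by Dixon's test at 95%, was found in 12 of 100 combinations of gene and group, where chance gives about 5. Of these, 6 lay in library 1 of DMSO1 at 24 hours, which was lowest in Postn (665 CPM), Ccn1 (19.5 CPM), Ccn2 (19.1 CPM), Thbs2 (32.4 CPM), Tnc (23.0 CPM) and Lox (22.6 CPM). Its fibroblast marker sum was also the lowest of its group, and the part of this in the low values was not tested. All 10 genes fell under 5FU at 24 hours without it as with it. Another 2 lay in library 7 of Dox at 24 hours, lowest in Postn (96.2 CPM) and Lox (25.4 CPM). The remaining 4 were single values: Thbs1 lowest in library 3 of DMSO1 at 6 hours (88.4 CPM), Ccn1 highest in library 3 of Ace at 6 hours (26.3 CPM), Lox highest in library 1 of 5FU at 6 hours (131 CPM) and Lox highest in library 4 of DMSO2 at 24 hours (64.3 CPM).

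The effect of a drug differed between 24 and 6 hours, by the test of the difference itself in edgeR, in 21 cases, given here as the 24-hour log2 effect minus the 6-hour effect. Under 5FU these were Postn (-2.31), Fn1 (-2.09), Tnc (-2.06), Lox (-1.65), Thbs2 (-1.33), Spp1 (-1.17), Ccn1 (-0.99) and Sparc (-0.56). Under Ace they were Postn (-1.53), Spp1 (-0.97), Lox (-0.83), Thbs2 (-0.82) and Sparc (-0.38). Under Dox they were Postn (-2.37), Thbs2 (-1.11), Spp1 (-0.82), Sparc (-0.67) and Tnc (-0.54) on the lower side and Thbs1 (1.62), Ccn1 (1.39) and Ccn2 (1.06) on the higher side.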

How the results depend on the processing

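No paired analysis was possible because the columns carry no replicate numbers, so a fit with a replicate block was not run. The number of the 10 genes called changed by over 1.5 times in these cases. With a log2 fold change of at least 1 it was 1 for 5FU at 6 hours, 1 for Ace at 6 hours, 0 for Dox at 6 hours, 3 for Dox at 24 hours, 2 for DMSO1 against DMSO2 at 6 hours, 1 for the controls over time, 1 and 5 for the time differences of Ace and Dox, 1 for Dox minus 5FU at 6 hours, and 0 and 4 for Dox against Ace at 6 and 24 hours. At an FDR below 0.1 it was 8 for Ace at 6 hours, 7 and 4 for DMSO1 against DMSO2 at 6 and 24 hours, and 8 for the time difference of Ace, which was also 8 in a fit of its groups alone. The DESeq2 Wald test gave 1 for DMSO1 against DMSO2 at 24 hours, where the main count was 0. With a library left out the count of calls ran from 4 to 6 for 5FU, 4 to 5 for Ace and 5 to 6 for Dox at 6 hours, and was 10, 8 to 9 and 8 at 24 hours. Shares of all genes were not computed for any of these settings, so the counts show only how the calls depend on the setting.

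Values that turned direction had not passed the threshold in either fit. With scaling by library size only, which moved the median of all genes to -0.15 in Dox at 6 hours, -0.11 in Dox against Ace at 6 hours and 0.27 in the time difference of Dox, the turned values were Thbs2 (-0.093) and Tnc (-0.096) in Dox at 6 hours, Ccn1 (0.013) and Fn1 (0.041) in the time difference of Ace, Lox (0.10) in that of Dox and Ccn1 (-0.057) in Dox against Ace at 6 hours. Fn1 in Dox minus 5FU at 6 hours (-0.012) turned with DESeq2's size factors (0.012), in DESeq2's Wald test (0.012) and in a fit of its groups alone (6.8e-05). With a library left out, some values turned in some of the fits, and their ranges over all such fits follow. Lox in 5FU at 6 hours ranged from -0.23 to 0.050 and Ccn2 in Dox at 24 hours from -0.010 to 0.16. Fn1 ranged from -0.17 to 0.087 in the time difference of Ace, and Lox from -0.18 to 0.060 in that of Dox. In Dox minus 5FU at 6 hours the ranges were -0.0032 to 0.29 for Ccn1, -0.29 to 0.13 for Ccn2 and -0.13 to 0.094 for Fn1. Of 2890 values of a gene in a comparison with a library left out, 2784 kept direction and call, 60 lost the call, 20 gained it and 26 turned. Filters changed no call in the 160 values, and a prior count of 0.5 moved no group mean by its SD. The causes were not tested.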

Other observations

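The pathway lists at 6 hours are read against the shares of all genes, which were 31.5% higher and 32.7% lower under Dox, 23.4% and 24.5% under 5FU, and 16.5% and 15.2% under Ace. Under Dox 6 of 11 processing enzymes were higher and none lower (median log2 fold change 0.43), 7 of 13 other targets of TGF-beta, YAP and serum response factor were higher and 4 lower (0.30), 9 of 20 receptors were higher and 6 lower (0.25), 6 of 19 upstream regulators were higher and 7 lower (-0.02), 6 of 18 family relatives were higher and 3 lower (0.20), and 1 of 16 elastic fibre and fibronectin partners was higher and 4 lower (-0.17). All 7 endothelial markers tested fell there (-1.55). Under 5FU 12 of 20 receptors fell and 1 rose (-0.35), 7 of 13 targets fell and 2 rose (-0.41), 8 of 19 regulators fell and 3 rose (-0.14), 3 of 11 enzymes fell and 3 rose (0.04), 4 of 18 relatives fell and 1 rose (-0.05), and 3 of 16 elastic fibre partners fell and 1 rose (0.0075). Under Ace 7 of 20 receptors, 7 of 19 regulators, 6 of 18 relatives, 5 of 16 elastic fibre partners, 3 of 11 enzymes and 2 of 13 targets fell, and the rises were 1 regulator and 1 target.

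Between 6 and 24 hours in the controls, where 32.7% of all genes were higher and 31.9% lower, 11 of 16 elastic fibre and fibronectin partners rose and 2 fell (median 0.60), 9 of 10 fibroblast markers rose (0.40) and 6 of 7 macrophage markers rose (0.73).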
